A study of Homo sapiens with 6 samples.

Results

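The 9 genes described here build, load or switch on major histocompatibility complex (MHC) class I molecules. They were chosen by symbol, from the 6 deposited count tables, and all 9 were found among the 56637 gene symbols listed. Their roles are: the heavy chains HLA-B, HLA-C, HLA-E and HLA-F, the light chain B2M, the peptide loading genes TAP1, TAP2 and TAPBP, and the transcriptional activator NLRC5. The set does not hold every heavy-chain gene.

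RNA was sequenced from MM.1S, a human cell line grown from a multiple myeloma, a cancer of antibody-secreting plasma cells. Cells of both groups had received a short hairpin RNA (shRNA) by lentivirus and had been selected with puromycin. In 3 shKDM6B libraries the hairpin was directed against KDM6B, an enzyme that takes methyl marks off histone H3 at lysine 27, and in 3 shLuc libraries, the controls, it was directed against luciferase, which human cells lack. The labels name 1 cell line and no second KDM6B hairpin or rescue, so the hairpin's other effects and those of KDM6B loss cannot be told apart. They do not say whether replicates came from separate cultures, so the p-values reflect library-to-library spread alone, and that spread may be technical.

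Class I molecules carry short peptides, cut from proteins inside the cell, to the surface, where cytotoxic T cells read them. A heavy chain pairs with B2M in the endoplasmic reticulum. TAP1 and TAP2 together form the pump that moves peptides into that compartment, and TAPBP (tapasin) holds an empty class I molecule beside the pump until a peptide fits. NLRC5 is a transactivator of class I genes that is itself induced by interferon gamma. In myeloma, as in other cancers, class I molecules decide whether T cells can see the tumour, and HLA-E also binds an inhibitory receptor of natural killer cells.

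The differences in these 9 genes were small. HLA-E fell by 12.2% in the shKDM6B libraries, TAP2 rose by 14.8% and TAP1 rose by 9.48%, while HLA-B, HLA-C, HLA-F, B2M, TAPBP and NLRC5 did not pass the test. That makes 3 of 9 members past the threshold, 2 higher and 1 lower, at an adjusted p under 0.05 by edgeR's quasi-likelihood test over all 13839 genes tested. Among all genes tested, 39.1% passed, 20.1% as higher and 18.9% as lower, so the members' share of 33.3% was near the background. The median size of the log2 fold change was 0.098 for the members and 0.16 for all genes tested. In bulk RNA, fewer cells of a type and less RNA per cell cannot be told apart.

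**Figure D1:**
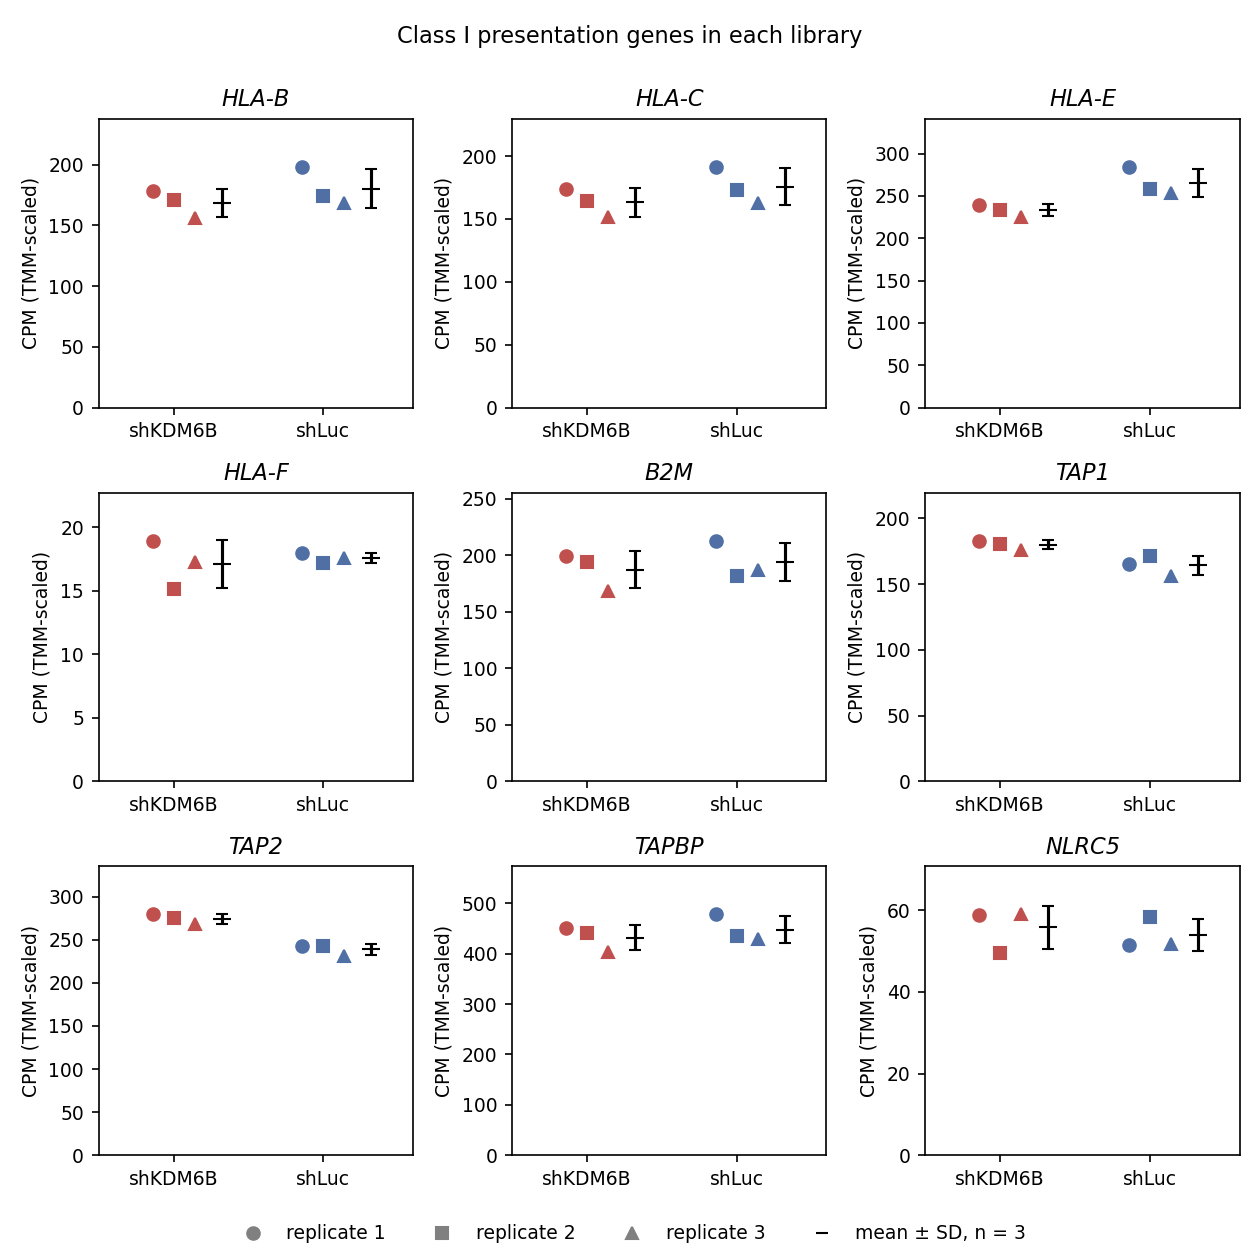
Level of each of the 9 class I presentation genes in CPM (library-scaled counts, TMM; y axis from 0) in each shKDM6B and shLuc library, with mean and SD (n = 3). The shKDM6B and shLuc values do not overlap for HLA-E, TAP1 and TAP2 and overlap for the other 6 genes.

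The target and the libraries were checked first. Levels are given in counts-per-million (CPM), scaled between libraries by TMM. KDM6B stood at 30.4, 32.3 and 35.1 CPM in shKDM6B replicates 1 to 3, against 56.2, 57.0 and 48.2 CPM in shLuc replicates 1 to 3, or 61.1% of the shLuc level in the fit. Library totals were 7952156 to 9848351 counts for shKDM6B and 7338393 to 8996159 for shLuc. Summed CPM of 8 plasma cell markers, all 8 of them tested, was 2245 to 2470 in shKDM6B and 2371 to 2530 in shLuc libraries. Of these 8, CD38 (log2 fold change -0.45, adjusted p = 3.88e-07) and TNFRSF17 (-0.37, adjusted p = 2.20e-06) fell and PRDM1 (0.15, adjusted p = 0.0173) rose, CD38 and TNFRSF17 by more than any of the 9 members. The same sum was 5.66 to 7.11 in shKDM6B against 8.31 to 12.1 in shLuc libraries for 8 T and natural killer cell markers, with CD3G and NKG7 at 0 in every library. The 1 of these 8 with enough counts to be tested, CD3E, fell (log2 fold change -0.59, adjusted p = 0.00727). For 8 myeloid markers it was 3.25 to 5.42 in shKDM6B against 2.86 to 3.51 in shLuc libraries, with FCGR3A at 0. For 8 fibroblast and endothelial markers it was 0.406 to 3.42 in shKDM6B against 0.222 to 0.954 in shLuc libraries, with LUM, PECAM1, VWF and CDH5 at 0. For 9 epithelial markers it was 2.03 to 44.2 in shKDM6B against 2.94 to 12.1 in shLuc libraries. Of the 4 tested, 3 keratins rose, with groups that overlapped. The other, EPCAM, was lower but did not pass (log2 fold change -0.83, adjusted p = 0.0680). The part of these cell markers in the differences below was not tested. Every library held some keratin counts. KRT14 had 76, 88 and 3 counts in shKDM6B replicates 1 to 3 and 17, 2 and 2 in shLuc replicates 1 to 3. Leaving out the 3 libraries with the most (shKDM6B replicates 1 and 2 and shLuc replicate 1) is one of the alternatives below. These 3 are called the libraries with keratin counts.

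Among the heavy chains, which hold the peptide and differ in how variable they are between people, HLA-E alone passed. Its raw counts were 1883, 1954 and 2236 in shKDM6B replicates 1 to 3, against 2071, 2290 and 2299 in shLuc replicates 1 to 3. As CPM, HLA-E had 239.7, 233.5 and 225.7 in the shKDM6B libraries, against 284.4, 258.6 and 253.3 in the shLuc libraries. All 3 shKDM6B values lay below all 3 shLuc values. The deepest library, shKDM6B replicate 3, held fewer HLA-E reads than shLuc replicates 2 and 3, although its total was larger. The means were 232.9 ± 7.0 CPM in shKDM6B and 265.4 ± 16.6 CPM in shLuc libraries (SD, n = 3 each). The fitted log2 fold change, -0.19 with an SE of 0.048, had an adjusted p of 0.00359. The call was lost when the scaling rested on sparsely covered genes (under 0.03 counts per base of exon, adjusted p = 0.234) or on the densest genes (at least 1, adjusted p = 0.179), and over 20 alternatives the adjusted p ran from 1.84e-05 to 0.234.

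The classical heavy chains HLA-B and HLA-C, the highly variable genes that present peptides to T cells, followed each other closely. HLA-B had 178.7, 170.5 and 155.9 CPM in shKDM6B replicates 1 to 3, against 198.2, 174.5 and 168.3 CPM in shLuc replicates 1 to 3. HLA-C had 173.9, 164.5 and 151.2 CPM in the shKDM6B libraries, against 191.4, 172.9 and 162.6 CPM in the shLuc libraries. For both genes the groups overlapped, with replicate 1 of shKDM6B above replicates 2 and 3 of shLuc. The log2 fold change was -0.098 for HLA-B (SE 0.057, adjusted p = 0.183) and -0.11 for HLA-C (SE 0.056, adjusted p = 0.145). The 95% intervals allow a change of -13.9% to 1.39% for HLA-B and of -14.3% to 0.769% for HLA-C. Without shLuc replicate 3, HLA-C passed as lower (adjusted p = 0.0304, with a range over 20 alternatives of 0.0133 to 0.675). The count of HLA-C per count of HLA-B was 0.973, 0.965 and 0.970 in shKDM6B and 0.966, 0.991 and 0.967 in shLuc libraries.

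HLA-B and HLA-C are closely related genes, and a read that matches several HLA genes, or an allele unlike the reference, may have been lost or shared out. How the authors treated such reads is not given in the sources used here, so the split between the heavy chains is uncertain. The promoters are shown because they are alike too: of 254 aligned positions, 226 (89%) were identical between HLA-B and HLA-C. Over the 6 libraries, which share their depths, log2 CPM of HLA-B correlated at 0.99 with HLA-C, 0.98 with TAPBP and 0.92 with B2M. The windows of TAPBP and B2M were 47.7% and 49.5% identical to that of HLA-B. Whether promoter likeness bears on these correlations was not tested. The sequences are the 250 bases before the RefSeq gene start, 5′ to 3′ on the gene's strand (minus for both), on GRCh38.p14, chr6:31357180-31357429 for HLA-B and chr6:31272093-31272342 for HLA-C. Capitals mark matches, on either strand, to the NF-kB motif (GGGA, any 4 bases, then CC), the interferon response core (GAAA, any 2 bases, then GAAA), the CCAAT box and the cyclic AMP half-site TGACG.
HLA-B promoter: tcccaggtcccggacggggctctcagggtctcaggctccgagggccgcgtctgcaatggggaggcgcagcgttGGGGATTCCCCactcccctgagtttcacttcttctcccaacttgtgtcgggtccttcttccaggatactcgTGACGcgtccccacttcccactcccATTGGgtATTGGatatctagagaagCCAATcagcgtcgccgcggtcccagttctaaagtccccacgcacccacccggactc
HLA-C promoter: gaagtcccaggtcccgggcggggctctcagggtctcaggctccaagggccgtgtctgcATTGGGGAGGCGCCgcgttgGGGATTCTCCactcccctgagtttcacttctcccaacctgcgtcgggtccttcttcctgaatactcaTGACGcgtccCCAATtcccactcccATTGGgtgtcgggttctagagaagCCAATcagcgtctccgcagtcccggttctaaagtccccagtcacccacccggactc
Both windows held 2 NF-kB matches, 1 TGACG and 0 interferon cores, with 3 CCAAT matches for HLA-B and 4 for HLA-C. A pair of matches overlapped in each: in HLA-B the NF-kB matches lie over each other on opposite strands, and in HLA-C a CCAAT match shares a base with an NF-kB match. Of 35116 RefSeq promoter windows of this length, 22.6% held the NF-kB motif, 3.02% the interferon core, 32% CCAAT and 21.2% TGACG. HLA-F, whose window was 80.4% identical to that of HLA-B, held 0 NF-kB matches, 1 interferon core and 2 CCAAT matches. A match is only a run of letters and not a shown binding site. Sites that depart from these letters were not counted, so 0 matches does not mean that a window lacks a site.

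HLA-F, a little-varied heavy chain found mostly inside cells, was the lowest of the 4. It had raw counts of 149, 127 and 171 in shKDM6B replicates 1 to 3 and 131, 152 and 160 in shLuc replicates 1 to 3. Its mean was 17.1 ± 1.9 CPM in shKDM6B and 17.6 ± 0.4 CPM in shLuc libraries (SD, n = 3 each), and its log2 fold change was -0.039 with an SE of 0.10 (adjusted p = 0.794). The shKDM6B values of HLA-F lay on both sides of all the shLuc values. The 4 heavy chains all had estimates below 0, but that of HLA-F was above 0 when scaled on sparsely covered genes (0.017).

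B2M, the light chain shared by all class I molecules, showed overlapping levels. It had 199.2, 194.2 and 168.8 CPM in shKDM6B replicates 1 to 3, against 213.0, 181.8 and 187.4 CPM in shLuc replicates 1 to 3. The log2 fold change was -0.051 (SE 0.060, adjusted p = 0.540), and the 95% interval runs from -11.4% to 5.21%. The highest value was in shLuc replicate 1 and the lowest in shKDM6B replicate 3, the libraries with the smallest and the largest totals.

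**Figure D2:**
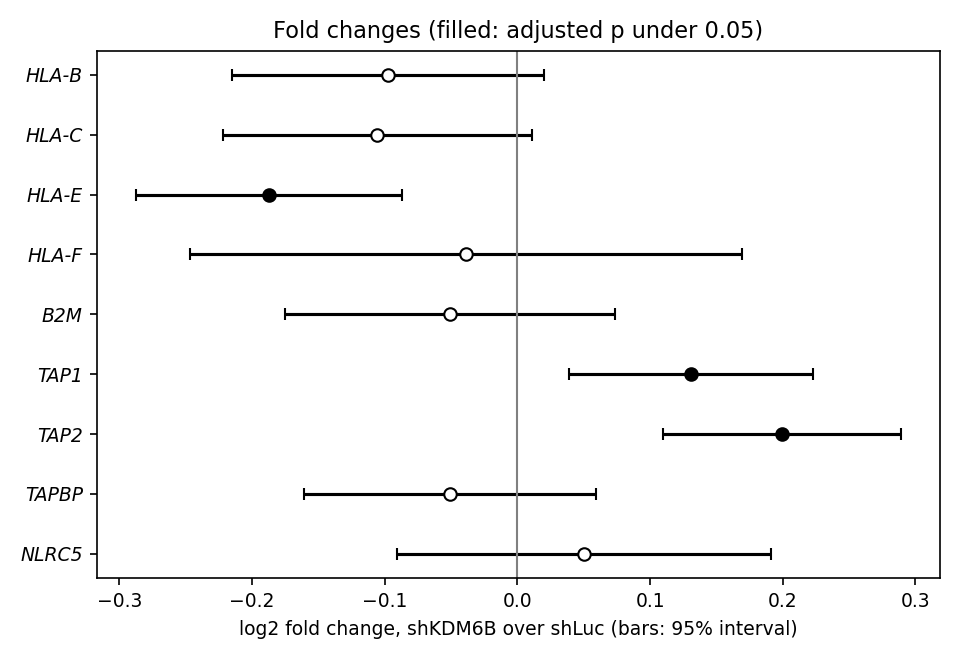
Log2 fold change (shKDM6B over shLuc, x axis) of the 9 genes from edgeR's fit, with 95% intervals; filled points have an adjusted p under 0.05. HLA-E lies at -0.19, TAP1 at 0.13 and TAP2 at 0.20, and the other 6 intervals include 0.

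TAP2, a subunit of the peptide pump, rose by about as much as HLA-E fell, and which of the pair changed more depended on the scaling and on the libraries kept. It had raw counts of 2194, 2298 and 2658 in shKDM6B replicates 1 to 3, against 1763, 2146 and 2100 in shLuc replicates 1 to 3. As CPM, TAP2 had 279.2, 274.6 and 268.3 in the shKDM6B libraries, against 242.1, 242.4 and 231.4 in the shLuc libraries. Every shKDM6B library was above every shLuc library, in CPM and in raw counts, although shKDM6B replicates 1 and 2 had smaller totals than shLuc replicates 2 and 3. The means were 274.0 ± 5.5 CPM in shKDM6B and 238.6 ± 6.3 CPM in shLuc libraries (SD, n = 3 each), or 0.20 on the log2 scale with an SE of 0.043 (adjusted p = 0.000796). TAP2 kept its call in all 20 alternatives, with log2 fold changes from 0.17 to 0.26.

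TAP1, the other pump subunit, rose by less. It had 183.1, 180.5 and 176.2 CPM in shKDM6B replicates 1 to 3, against 165.5, 171.2 and 156.4 CPM in shLuc replicates 1 to 3. The groups did not overlap, and the closest pair was shKDM6B replicate 3 and shLuc replicate 2. The means were 180.0 ± 3.5 CPM in shKDM6B and 164.3 ± 7.5 CPM in shLuc libraries (SD, n = 3 each), or 0.13 on the log2 scale with an SE of 0.044 (adjusted p = 0.0225). TAP1 lost its call without shKDM6B replicate 1 (adjusted p = 0.0670), shKDM6B replicate 2 (0.0893) or shLuc replicate 3 (0.172), without the 3 libraries with keratin counts (0.172), by DESeq2 (0.0879), and with scaling from dense genes (0.0560) or the densest (0.224). Its log2 fold change stayed between 0.090 and 0.19 in the 20 alternatives, with adjusted p from 0.00221 to 0.224. The count of TAP1 per count of TAP2 was 0.656, 0.658 and 0.657 in shKDM6B libraries, against 0.683, 0.706 and 0.676 in shLuc libraries.

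In all, 3 of 9 members (33.3%), HLA-E, TAP1 and TAP2, had groups that did not overlap, against 48.4% of all genes tested. The promoters of both pump subunits are shown because these were the members that rose. They are again the 250 bases before the RefSeq start on GRCh38.p14, minus strand, chr6:32853705-32853954 for TAP1 (the farther upstream of 2 starts in the table) and chr6:32838740-32838989 for TAP2, with the same motifs in capitals.
TAP1 promoter: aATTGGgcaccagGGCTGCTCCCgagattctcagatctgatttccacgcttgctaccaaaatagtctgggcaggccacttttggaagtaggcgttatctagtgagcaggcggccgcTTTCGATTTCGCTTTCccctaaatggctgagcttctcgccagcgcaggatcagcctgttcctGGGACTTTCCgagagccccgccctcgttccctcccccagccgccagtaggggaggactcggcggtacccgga
TAP2 promoter: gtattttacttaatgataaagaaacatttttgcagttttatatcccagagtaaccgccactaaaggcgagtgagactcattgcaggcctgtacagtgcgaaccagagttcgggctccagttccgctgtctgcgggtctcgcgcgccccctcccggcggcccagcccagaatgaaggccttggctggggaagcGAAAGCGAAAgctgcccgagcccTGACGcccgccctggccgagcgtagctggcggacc
The TAP1 window held 2 overlapping interferon cores, 2 NF-kB matches and 1 CCAAT match. The TAP2 window held 1 interferon core and 1 TGACG and no match to the other motifs. Interferon cores were also found in the windows of TAPBP (2), B2M (2) and HLA-F (1), and in 3.02% of all windows.

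TAPBP did not move with the pump. It had 451.3, 440.1 and 403.8 CPM in shKDM6B replicates 1 to 3, against 477.6, 435.1 and 429.2 CPM in shLuc replicates 1 to 3. The groups overlapped, and again the shallowest library was highest and the deepest lowest. The log2 fold change was -0.051 (SE 0.053, adjusted p = 0.482; 95% interval -10.6% to 4.17%).

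NLRC5, the activator, showed no difference that passed. It had raw counts of 462, 415 and 584 in shKDM6B replicates 1 to 3, against 375, 517 and 469 in shLuc replicates 1 to 3. As CPM these were 58.8, 49.6 and 58.9 in the shKDM6B libraries, against 51.5, 58.4 and 51.7 in the shLuc libraries. The lowest and the highest values were both in the shKDM6B group. The log2 fold change was 0.050 (SE 0.068, adjusted p = 0.597), and the 95% interval runs from -6.10% to 14.2%. By the correlation of log2 CPM over the 6 libraries, the genes most like NLRC5 among 11209 were SFSWAP (Pearson r 0.98), TMC5 (0.98), G2E3 (0.98), ZFYVE19 (0.97) and ARSG (0.97). All 5 share the libraries and their depths with NLRC5. They were picked as the highest of 11209 genes over only 6 libraries, so these values do not show a link to NLRC5. That 0 of the 5 passed the test follows from the choice, since NLRC5 itself did not pass.

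Ratios within a library do not depend on scaling between libraries. The summed counts of TAP1, TAP2 and TAPBP per summed count of the 4 heavy chains were 1.495, 1.53 and 1.54 in shKDM6B replicates 1 to 3, against 1.28, 1.36 and 1.36 in shLuc replicates 1 to 3. The summed loading genes were thus higher relative to the summed heavy chains in every shKDM6B library than in any shLuc library. The mean log2 of this ratio was 0.61 ± 0.02 in shKDM6B and 0.41 ± 0.05 in shLuc libraries (SD, n = 3 each), a difference of 0.19. The difference was 0.17 with B2M counted among the heavy chains and 0.20 from mean log2 counts. It is given as a description without a test. The sums join genes that did not move together. Of the loading genes TAP1 and TAP2 rose and TAPBP did not (log2 fold change -0.051), and of the heavy chains HLA-E alone passed.

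Single pairs differed in whether the groups overlapped. TAP2 per HLA-E was 1.17, 1.18 and 1.19 in shKDM6B libraries, against 0.851, 0.937 and 0.913 in shLuc libraries, with no overlap. That follows from the levels above, where every shKDM6B library was higher for TAP2 and lower for HLA-E. TAPBP per HLA-E was 1.88, 1.88 and 1.79 in shKDM6B libraries, against 1.68, 1.68 and 1.69 in shLuc libraries, also without overlap. HLA-B per B2M was 0.897, 0.878 and 0.924 in shKDM6B libraries, against 0.930, 0.960 and 0.898 in shLuc libraries, and the groups overlapped. Ratios to NLRC5 overlapped as well: TAP2 per NLRC5 was 4.75, 5.54 and 4.55 in shKDM6B libraries, against 4.70, 4.15 and 4.48 in shLuc libraries. HLA-E per NLRC5 was 4.08, 4.71 and 3.83 in shKDM6B libraries, against 5.52, 4.43 and 4.90 in shLuc libraries.

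**Figure D3:**
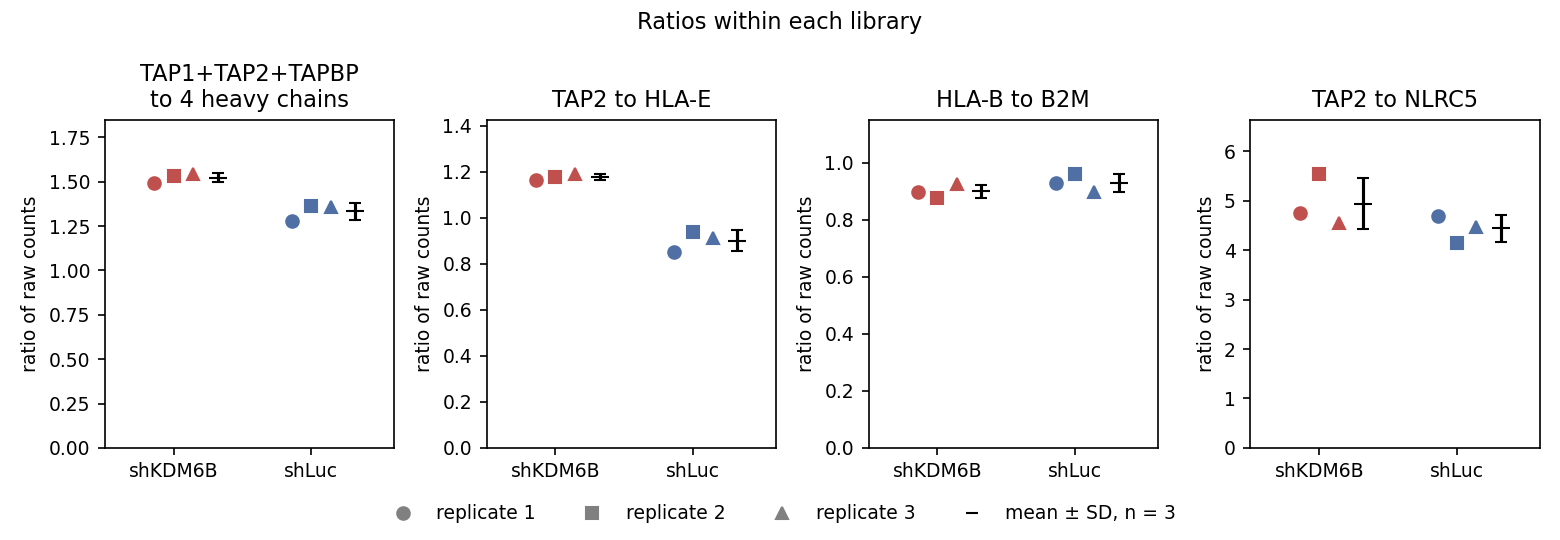
Ratios of raw counts within each library (y axes from 0) for shKDM6B and shLuc, with mean and SD (n = 3). The ratio of loading genes to heavy chains is 1.495 to 1.54 in shKDM6B and 1.28 to 1.36 in shLuc libraries; HLA-B to B2M and TAP2 to NLRC5 overlap between the groups.

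Levels can be ordered between genes only per length. Counted as CPM per kilobase of the shortest principal transcript in GENCODE 29, TAPBP was highest, with 228.7 ± 13.1 in shKDM6B and 236.9 ± 13.98 in shLuc libraries (SD, n = 3 each). B2M followed with 173.3 ± 15.1 in shKDM6B and 179.5 ± 15.4 in shLuc libraries. In shKDM6B libraries the next were TAP2 (109.7 ± 2.2), HLA-B (108.8 ± 7.4) and HLA-C (106.2 ± 7.4), which overlapped, then HLA-E (89.6 ± 2.7) and TAP1 (60.8 ± 1.2). In shLuc libraries HLA-B (116.5 ± 10.2), HLA-C (114.4 ± 9.5) and HLA-E (102.1 ± 6.4) overlapped and stood above TAP2 (95.6 ± 2.5) and TAP1 (55.5 ± 2.5). HLA-F (10.5 ± 1.2 in shKDM6B and 10.8 ± 0.3 in shLuc) and NLRC5 (8.30 ± 0.80 in shKDM6B and 8.01 ± 0.58 in shLuc) were lowest. By this length TAP2 ranked above the heavy chains' lowest dense member, HLA-E, in shKDM6B and below it in shLuc libraries. The order depends on the length used. With all exons of a gene merged, mean counts per base over the 6 libraries were 0.740 for TAPBP and 0.713 for HLA-E. HLA-C (0.575), HLA-B (0.486), TAP2 (0.343), TAP1 (0.306) and B2M (0.267) were lower.

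Counts of every member but NLRC5 grew less with depth than the library total in both groups, by differing amounts. From the shallowest to the deepest library the total grew 1.24-fold within shKDM6B and 1.23-fold within shLuc. Over the same libraries B2M grew 1.07-fold in shKDM6B and 1.10-fold in shLuc, HLA-B 1.10-fold in shKDM6B and 1.06-fold in shLuc, and TAPBP 1.13-fold in shKDM6B and 1.12-fold in shLuc. TAP1 and TAP2 fell less short of the total than B2M, HLA-B and TAPBP. TAP1 grew 1.21-fold in shKDM6B and 1.18-fold in shLuc, and TAP2 1.21-fold in shKDM6B and 1.19-fold in shLuc. HLA-E grew 1.19-fold in shKDM6B and 1.11-fold in shLuc, and NLRC5 1.26-fold in shKDM6B and 1.25-fold in shLuc. Per base of the same transcripts, mean counts were 1.98 for TAPBP, 1.499 for B2M, 0.958 for HLA-B, 0.938 for HLA-C, 0.878 for TAP2, 0.816 for HLA-E and 0.498 for TAP1, against 0.0907 for HLA-F and 0.0699 for NLRC5. CPM of HLA-B, HLA-C, HLA-E, B2M and TAPBP was highest in the shallowest library, shLuc replicate 1, and lowest in the deepest, shKDM6B replicate 3. Mean totals were 8762082 in shKDM6B and 8392957 in shLuc libraries. The part of depth in these differences was not tested.

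**Figure D4:**
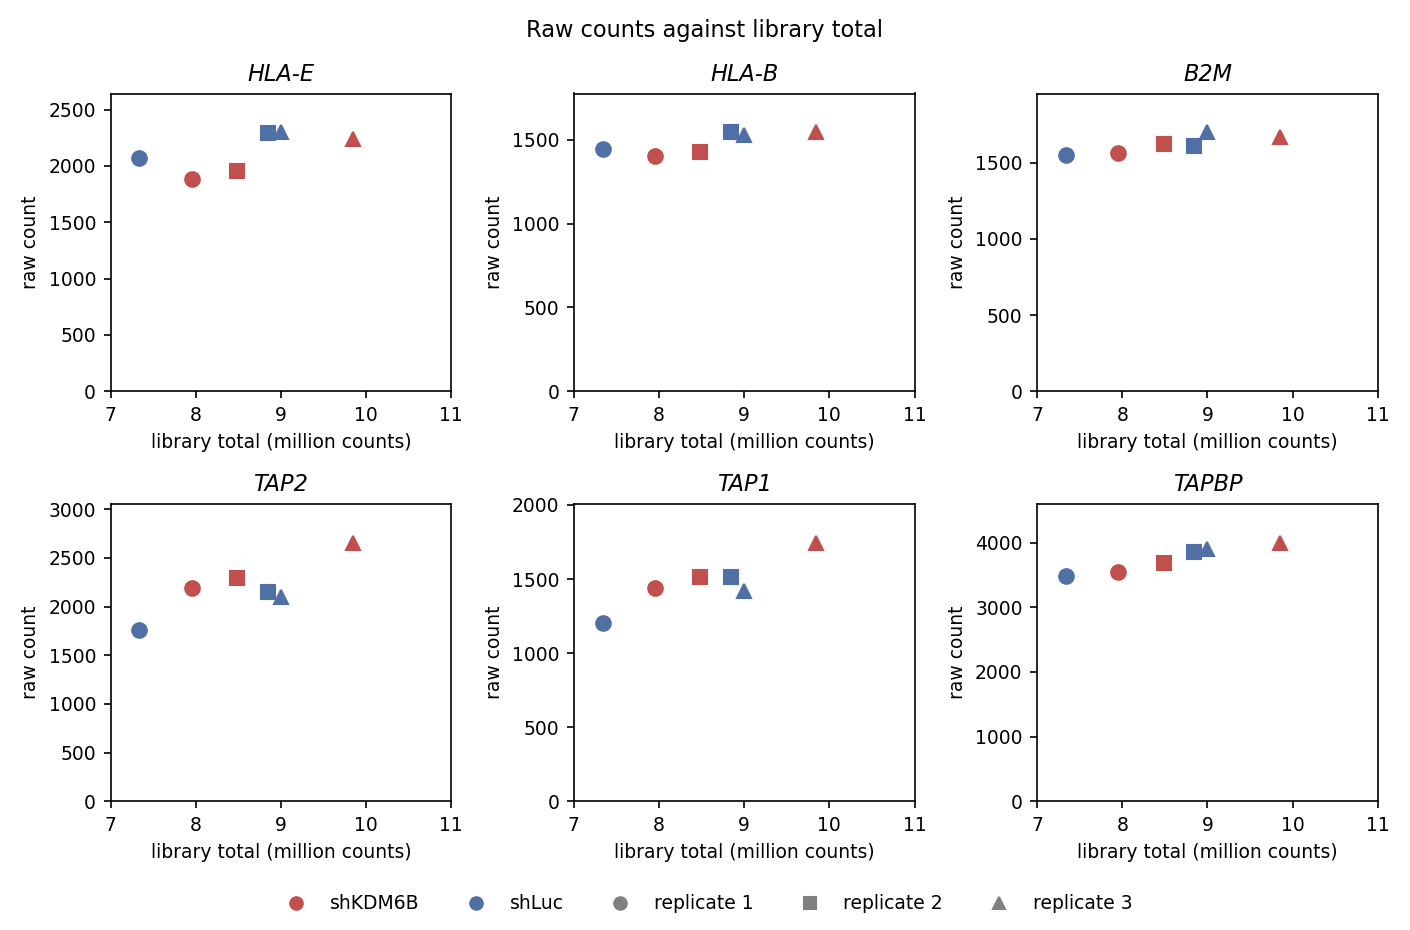
Raw counts of 6 genes (y axes from 0) against the library total (x axis, which does not start at 0) in shKDM6B and shLuc libraries. HLA-B and B2M are nearly flat across totals, the shKDM6B points of TAP2 lie above the shLuc points, and those of HLA-E lie below the shLuc points of similar total.

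Among other genes that load and trim class I peptides, 3 fell. Of 9 tested, 0 were higher, 3 lower and 6 did not pass, a share near the 39.1% of all genes that passed, with a median log2 fold change of -0.038 against -0.0053 over all genes tested. ERAP1, an aminopeptidase that trims peptides to class I length in the endoplasmic reticulum, fell to 160.9 ± 1.7 CPM in shKDM6B, against 219.2 ± 1.9 CPM in shLuc libraries (SD, n = 3 each), or -0.45 on the log2 scale with an SE of 0.041 (adjusted p = 1.22e-08). Its partner ERAP2 fell to 156.0 ± 8.0 CPM in shKDM6B, against 194.5 ± 5.3 CPM in shLuc libraries (log2 fold change -0.32, adjusted p = 6.66e-06). TAPBPL, the tapasin-related peptide editor TAPBPR, fell to 77.5 ± 4.2 CPM in shKDM6B, against 97.1 ± 3.9 CPM in shLuc libraries (log2 fold change -0.33, adjusted p = 1.97e-05). ERAP1 and ERAP2 kept their calls in all 20 alternatives, and TAPBPL lost its call with scaling from the densest genes (adjusted p = 0.0660). The chaperones CALR (-0.067) and CANX (-0.028) and the loading complex thiol oxidoreductase PDIA3 (0.014) did not pass.

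Among genes that make or cut peptides in the cytosol, 11 were tested, of which 0 were higher, 3 lower and 8 did not pass (median log2 fold change -0.0097). Over all genes tested, 39.1% passed and 18.9% were lower. The immunoproteasome subunits PSMB8 (-0.022), PSMB9 (0.047) and PSMB10 (-0.0097) and the proteasome activator genes PSME1 (0.044) and PSME2 (-0.0020) did not pass. The cytosolic peptidase BLMH fell (log2 fold change -0.34, SE 0.044, adjusted p = 1.70e-06), as did TPP2 (-0.13, adjusted p = 0.0321) and NRD1 (-0.12, adjusted p = 0.0364). TPP2 and NRD1 kept their calls in 13 and 8 of the 20 alternatives. They lost them when scaled on sparsely covered genes (adjusted p = 0.552 for TPP2 and 0.631 for NRD1), and TPP2 without shKDM6B replicate 1 (0.0733), shKDM6B replicate 3 (0.154), shLuc replicate 1 (0.106) or shLuc replicate 2 (0.0775). NRD1 lost its call whichever single library was left out, with adjusted p from 0.0558 to 0.128.

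Class I-like molecules and stress ligands went both ways. Of 14 listed, 5 had enough counts to be tested. Of these, 2 were higher, 2 lower and 1, HLA-G, did not pass (median log2 fold change -0.047). Over all genes tested, 39.1% passed, 20.1% as higher and 18.9% as lower. MR1, which presents vitamin B metabolites to mucosal-associated invariant T cells, rose to 82.8 ± 3.2 CPM in shKDM6B, against 64.3 ± 1.7 CPM in shLuc libraries (SD, n = 3 each), or 0.37 on the log2 scale with an SE of 0.050 (adjusted p = 3.56e-06). MICA, a stress ligand of the natural killer cell receptor NKG2D, rose to 22.0 ± 3.0 CPM in shKDM6B, against 17.0 ± 0.4 CPM in shLuc libraries (log2 fold change 0.36, adjusted p = 0.00630). Its relative MICB, a ligand of the same receptor, fell to 71.4 ± 1.8 CPM in shKDM6B, against 81.8 ± 2.5 CPM in shLuc libraries (log2 fold change -0.20, adjusted p = 0.00242). The secreted class I-like protein gene AZGP1 fell to 3.49 ± 1.04 CPM in shKDM6B, against 7.56 ± 1.39 CPM in shLuc libraries (log2 fold change -1.12, adjusted p = 0.000140). MICA lost its call without shKDM6B replicate 1 (adjusted p = 0.0528), and without the 3 libraries with keratin counts both MICA (0.111) and MICB (0.0734) did, at log2 fold changes of 0.30 for MICA and -0.18 for MICB. That fit holds 1 shKDM6B library. MICA and MICB also lost theirs with scaling from the densest genes (0.0799 for MICA and 0.408 for MICB), and MICB when scaled on sparsely covered genes (0.0938).

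Regulators of class I transcription were mixed. Of 8 genes of factors that bind class I promoters, 2 were higher, 1 lower and 5 did not pass (median log2 fold change -0.064). That share was near the 39.1% of all genes tested that passed. The CCAAT-binding subunits NFYC (0.29, SE 0.049, adjusted p = 5.65e-05) and NFYA (0.14, adjusted p = 0.0225) rose, and CREB1, which binds the TGACG half-site, fell (-0.20, adjusted p = 0.00208). RFX5 (-0.055), RFXAP (0.015) and RFXANK (-0.12), the partners through which NLRC5 reaches the promoter, did not pass. NFYA lost its call without shKDM6B replicate 2 (adjusted p = 0.0586), shKDM6B replicate 3 (0.130) or shLuc replicate 2 (0.0928) and by DESeq2 (0.158). CREB1 lost its call without the 3 libraries with keratin counts (0.0570, at a log2 fold change of -0.20) and when scaled on sparsely covered genes (0.0777).

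Among 15 interferon and NF-kB inputs to class I, 6 were higher, 4 lower and 5 did not pass (median log2 fold change 0.035). Over all genes tested, 39.1% passed, 20.1% as higher and 18.9% as lower. NFKB1, a precursor of NF-kB subunits, rose to 146.6 ± 2.8 CPM in shKDM6B, against 110.7 ± 3.0 CPM in shLuc libraries (SD, n = 3 each), or 0.40 on the log2 scale with an SE of 0.043 (adjusted p = 1.13e-07). IRF1, an interferon-induced activator of class I promoters, rose (0.19, adjusted p = 0.00110), as did the type I interferon receptor chain IFNAR1 (0.19, adjusted p = 0.00139). STAT2, which carries the type I interferon signal, fell (-0.16, adjusted p = 0.00465), and lost its call without the 3 libraries with keratin counts (adjusted p = 0.0736, at a log2 fold change of -0.12) and when scaled on sparsely covered genes (0.378). RELA (0.00043), an NF-kB subunit gene, did not pass.

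Of 7 genes listed under class I surface turnover, 1 was higher, 1 lower and 5 did not pass (median log2 fold change 0.014). Not all 7 are known to act on assembled class I molecules. Over all genes tested, 39.1% passed, 20.1% as higher and 18.9% as lower. CAND1, a regulator of cullin ubiquitin ligases, rose (0.35, SE 0.044, adjusted p = 1.70e-06), and TMEM127, an adaptor that promotes class I turnover, fell (-0.19, adjusted p = 0.00277). TMEM127 lost its call when scaled on sparsely covered genes (adjusted p = 0.166). Of 6 H3K27 methylation genes, KDM6B, the hairpin's target, included, 1 was higher and 4 were lower (median log2 fold change -0.15). The remaining gene, EZH2 (0.036), the main H3K27 methyltransferase, did not pass. The share over all genes tested is again 39.1%. The Polycomb subunit SUZ12 rose (0.49, SE 0.045, adjusted p = 1.37e-08), while its partner EED (-0.20, adjusted p = 0.00785) and KDM6A, the other H3K27 demethylase (-0.18, adjusted p = 0.0164), fell. KDM6A lost its call without shKDM6B replicate 1 (adjusted p = 0.0926), shKDM6B replicate 3 (0.0534) or shLuc replicate 3 (0.0607), and with scaling from dense genes (0.0715). By DESeq2 both KDM6A (0.0830) and EED (0.0715) lost their calls. So did both when scaled on sparsely covered genes (0.141 for KDM6A and 0.109 for EED) or the densest (0.491 for KDM6A and 0.462 for EED). Both also lost their calls without the 3 libraries with keratin counts, at log2 fold changes of -0.21 for each. Polycomb methylation is known to hold class I genes down in other cancers.

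**Figure D5:**
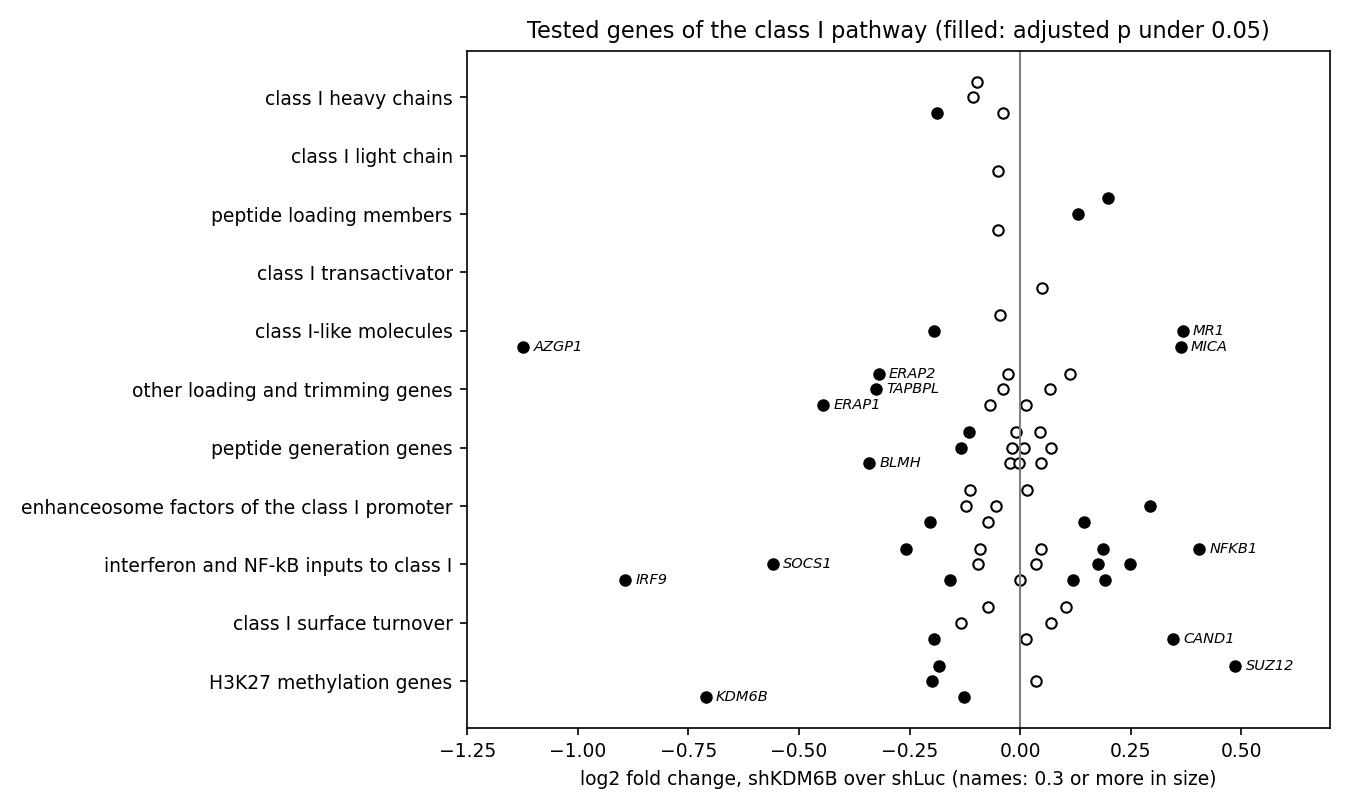
Log2 fold changes (shKDM6B over shLuc, x axis) of the tested genes in each list of the class I pathway (rows); filled points have an adjusted p under 0.05, and genes at 0.3 or more in size are named. The 9 members lie within 0.20 of 0, ERAP1 at -0.45 and MR1 at 0.37.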

How the data were processed

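Per the labels' protocols, total RNA was extracted from lentivirally transduced, puromycin-selected cells and made into libraries with a NEBNext Ultra RNA kit. The authors deposited raw counts per gene symbol, 1 table for each library, and 1 series-wide table of normalized signal (counts over a factor for each library). The tools named, per the submitters' processing notes, are featureCounts, STAR and DESeq, with the build GRCh37 (hg19). Their versions and the settings for annotation, strand, multi-mapping and duplicates: not given in the sources used here. Of each count table, 1 line held no symbol with a count and was left out.

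All 6 libraries entered 1 edgeR 4.0.16 fit (R 4.3.3) of the deposited counts, with filterByExpr, TMM scaling, glmQLFit, glmQLFTest and group as the only term. Benjamini-Hochberg adjustment covered the 13839 genes kept, with a threshold of 0.05. Fold changes are shKDM6B over shLuc. SEs are those implied by the test statistic, and 95% intervals use its degrees of freedom. Totals of 7338393 to 9848351 counts set the precision. The alternatives were other scalings, filters and thresholds, DESeq2 1.42.0, voom and trend in limma 3.58.1 (for trend, log2 of deposited normalized signal with 1 added), the replicate block and left-out libraries. Scaling genes were taken by counts per base of exon (all exons of a gene merged): under 0.03 (sparse), at least 0.3 (dense) or at least 1 (densest, 44 genes, chosen after seeing the data). Replicate pairs differed slightly beyond counting noise (chi-square per degree of freedom 1.08 to 1.33). That comparison used genes under 0.03 counts per base with at least 20 counts in the pair. It does not show that replicates came from separate cultures. Each library counted as 1 sample.

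Named were the members, KDM6B, up to 4 genes per list with the smallest p past the threshold, and, for likeness to NLRC5, the top 5 with at least 5 CPM. Genes named without a call were chosen after their values were seen. Members and lists were chosen with earlier results of these data known. Promoter sequences are from RefSeq (GRCh38.p14), which held 7 of the 9 members, without HLA-E and NLRC5. Exon lengths are from GENCODE 29.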

Additional observations from a re-analysis of the deposited data

How the results depend on the processing

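In 20 alternatives TAP2, NLRC5 and KDM6B kept their direction and side of the threshold, KDM6B with log2 fold changes from -0.79 to -0.58. Scaling on sparsely covered genes gave HLA-E -0.13 and turned B2M (0.0071), HLA-F (0.017) and TAPBP (0.0064) to above 0; lists then had 1 call (peptide generation), 1 (surface turnover) and 2 (H3K27). Scaling from dense genes gave TAP1 0.12, with 3 H3K27 and 6 interferon calls. Scaling from the densest genes gave HLA-E -0.15, TAP1 0.16, 1 member past the threshold, 2417 genes against 5405, and 1 call each in peptide generation, surface turnover and promoter factors, 2 each in H3K27 and class I-like genes, and 3 in interferon inputs. With scaling on sparsely covered genes 3187 genes were higher and 1790 lower, against 2783 and 2622. DESeq2 gave TAP1 0.13, 2 H3K27 and 5 interferon calls. An adjusted p under 0.01 ended the call of TAP1 (0.13) and left 1 peptide generation, 3 H3K27 and 6 interferon calls. The cause of these moves was not tested.

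Leaving out each library moved HLA-B between -0.15 (without shLuc replicate 3) and -0.032 (without shLuc replicate 1), NLRC5 between 0.0055 (without shKDM6B replicate 3) and 0.12 (without shKDM6B replicate 2), TAPBP between -0.084 and -0.0020, TAP1 between 0.090 and 0.16, HLA-C between -0.16 and -0.046, HLA-F between -0.11 and 0.034 and B2M between -0.098 and 0.025; peptide generation calls ran from 1 to 2 and H3K27 calls from 3 to 4. TAP1 lost its call without shKDM6B replicate 1 or 2 or shLuc replicate 3. B2M was above 0 without shKDM6B replicate 3 (0.025) or shLuc replicate 1 (0.014), and HLA-F without shKDM6B replicate 2 (0.034). Without the 3 libraries with keratin counts, where the lone shKDM6B library is assumed to vary like the shLuc ones, TAP1 was at 0.11 and 2 H3K27, 2 class I-like and 5 interferon calls were left.

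Replicate numbers are shared by the groups. Deviations of same-numbered libraries correlated at 0.12, -0.076 and 0.16, and those of differently numbered libraries across groups at -0.19 to 0.075. These values do not settle whether the numbers mark pairs, and the main fit did not take them as pairs. With the replicate block, 6218 genes passed and 5 members, HLA-B (-0.097) and HLA-C (-0.10) as lower among them, and 4 surface turnover genes. Depth limits HLA-F most, with 127 to 171 counts a library.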

Other observations

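Class I relatives and pseudogenes also collected reads. HLA-H, a class I pseudogene, had 132, 131 and 136 counts in shKDM6B replicates 1 to 3 and 125, 133 and 134 in shLuc replicates 1 to 3. HLA-G, a heavy chain known mainly from placenta, had 74, 82 and 84 counts in shKDM6B and 81, 78 and 80 in shLuc libraries, and the pseudogene HLA-L had 45, 53 and 50 in shKDM6B and 51, 54 and 68 in shLuc libraries. HLA-J and HLA-K had 2 to 7 counts in every library. Whether reads of the expressed heavy chains were counted there was not tested. HLA-G and the pseudogenes named here were chosen after their values were seen.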
